A study of Mus musculus with 32 samples.

Results

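The 10 genes described here encode transcription factors of the B lineage: Ebf1, Pax5, Tcf3, Foxo1, Irf4, Irf8, Spi1, Spib, Lef1 and Bach2. They were listed by name, 10 of 21951 protein-coding genes of the annotation (GENCODE M21, mm10), and every binding region within 50 kb of a gene body was taken with them. Peaks of the 8 lists of one target that overlapped were merged into regions. This gave 98 of 23856 Ikaros regions, 75 of 15358 CHD4 regions and 285 of 39309 H3K27ac regions. A region within 1 kb of any annotated transcription start site was called a promoter region, and the others distal. A region was tied to a gene by position alone.

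The libraries were ChIP-seq of B3 cells, which grew out of a mouse lymphoma and resemble pre-B cells, carrying a retroviral HA-tagged Ikaros fused to the ligand-binding domain of a modified estrogen receptor (HA-Ikaros-ERt2). 4-hydroxytamoxifen (4-OHT) lets the fusion into the nucleus. Times were 0 h, 30 min, 1 h and 2 h in 500 nM 4-OHT, with 2 replicates per time and target, 24 peak lists in all. The 0 h cells carried the transgene too, and no cells without it were compared. The labels do not say whether replicates were separate cultures, so p-values measure the spread between these samples only.

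The factors act in layers. PU.1 (encoded by Spi1) and E2A (Tcf3) act from early progenitors on, Ebf1, Foxo1 and Pax5 specify and hold B cell identity, and Irf4, Irf8 and Spi-B, a relative of PU.1, act with PU.1-type factors at composite sites and in the pre-B cell transition. Lef1 carries Wnt signals in early B cells, and Bach2 is a repressor that works at the pre-B cell receptor checkpoint. Ikaros is a zinc finger protein that binds DNA words with a GGGA core and is found with CHD4, the ATPase of the NuRD remodelling complex. H3K27ac marks active promoters and enhancers.

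Of 9 genes chosen as marks of pre-B cells, 8 had an H3K27ac peak at a start site in all 8 lists, and the remaining one, Rag1, in 7. Of 6 myeloid genes 5 had none in any list, of 6 T cell genes 4 had none and 2 (Cd3d and Zap70) had one in all 8, and of 5 erythroid genes 3 had none and 2 (Klf1 and Hbb-bt) had one in all 8. Lists held 5373 to 14874 Ikaros peaks, 2488 to 9593 CHD4 peaks and 21468 to 33664 H3K27ac peaks. The mean coverage recovered from the peak statistics was 1.98 to 3.59 fragments per base for Ikaros, highest at 0 h (3.59 and 3.13), and 3.75 to 4.34 for H3K27ac. It could not be recovered from the broad CHD4 lists.

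All 10 genes had regions of all 3 targets. The median over the genes was 4.69 Ikaros regions per 100 kb of window, against 1.46 over all protein-coding genes. For CHD4 it was 3.94 against 0.726, and for H3K27ac 8.68 against 1.96. Irf8 was the most densely bound by Ikaros and CHD4, with 10.8 Ikaros, 9.14 CHD4 and 23.3 H3K27ac regions per 100 kb, which were above 98.3%, 99.4% and 99.8% of genes. Ebf1 had 131 H3K27ac regions, or 26.7 per 100 kb, above 99.9% of genes. Irf4 was the most thinly bound, with 2 Ikaros regions, 1 CHD4 region and 3 H3K27ac regions. Of the 98 Ikaros regions, 76 overlapped a CHD4 peak of any list (77.6%, against 54.6% of all Ikaros regions), and 94 overlapped an H3K27ac peak (95.9% against 87.4%).

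The sequences under the Ikaros summits are shown first for the regions that went down or came up with 4-OHT, so that both kinds can be compared by eye. Each is GRCm38 sequence on the plus strand, 50 bases to either side of the summit of the peak with the highest fold. The word GGGAA, or TTCCC where it lies on the other strand, is in capitals. The first is a region 36.6 kb upstream of Irf8 (chr8:120699838-120699938), where Ikaros fell at every time in 4-OHT, and it holds 2 words. The next 4 are the regions lost at 2 h: downstream of Irf8 (chr8:120763404-120763504), in introns of Ebf1 (chr11:44920186-44920286) and Lef1 (chr3:131139295-131139395), and upstream of Tcf3 (chr10:80443141-80443241).

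Irf8 upstream, fell: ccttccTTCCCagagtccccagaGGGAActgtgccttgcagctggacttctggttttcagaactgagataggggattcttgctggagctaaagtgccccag

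Irf8 downstream, lost: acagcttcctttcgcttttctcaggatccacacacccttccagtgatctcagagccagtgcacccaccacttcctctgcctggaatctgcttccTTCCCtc

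Ebf1 intron, lost: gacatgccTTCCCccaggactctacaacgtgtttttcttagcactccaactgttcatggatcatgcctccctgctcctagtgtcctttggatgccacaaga

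Lef1 intron, lost: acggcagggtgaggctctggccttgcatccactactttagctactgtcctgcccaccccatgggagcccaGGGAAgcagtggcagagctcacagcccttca

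Tcf3 upstream, lost: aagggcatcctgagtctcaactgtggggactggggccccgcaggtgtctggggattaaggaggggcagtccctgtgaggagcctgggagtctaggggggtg

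The next 5 are regions gained at 2 h, in introns of Ebf1 (chr11:44893309-44893409) and Lef1 (chr3:131208626-131208726) and at the promoters of Foxo1 (chr3:52267979-52268079), Spi1 (chr2:91083088-91083188) and Nr1h2, a neighbour of Spib (chr7:44554043-44554143). Of the 4 gained regions not printed, the one at the Irf8 promoter holds the word as well.

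Ebf1 intron, gained: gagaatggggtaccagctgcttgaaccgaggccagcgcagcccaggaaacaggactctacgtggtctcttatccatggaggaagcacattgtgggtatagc

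Foxo1 promoter, gained: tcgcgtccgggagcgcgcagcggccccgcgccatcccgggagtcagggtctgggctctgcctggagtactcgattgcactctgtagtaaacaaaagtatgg

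Spi1 promoter, gained: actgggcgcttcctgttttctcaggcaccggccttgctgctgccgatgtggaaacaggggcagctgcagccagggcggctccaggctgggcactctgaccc

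Lef1 intron, gained: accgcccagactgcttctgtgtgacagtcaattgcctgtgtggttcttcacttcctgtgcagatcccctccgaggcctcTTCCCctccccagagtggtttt

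Nr1h2 promoter, gained: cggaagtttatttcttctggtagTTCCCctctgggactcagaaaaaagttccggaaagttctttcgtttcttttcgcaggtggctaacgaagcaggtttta

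GGGAA, searched on both strands, stood in the windows of 3 of the 4 lost regions near these genes and 3 of the 9 gained ones. Over the whole lists it stood in 56.0% of lost, 34.7% of gained and 39.5% of all Ikaros regions. The longer word GAGGAAGT, of the type bound by PU.1 and Spi-B, does not contain GGGAA and was also searched on both strands. It stood in 1 of the 4 lost and 1 of the 9 gained regions near these genes. Over the whole lists it stood in 4.08% of lost, 2.38% of gained and 2.2% of all Ikaros regions. These are matches of letters and not mapped sites.

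Around all 10 genes together, the lists held 49 and 50 Ikaros peaks at 0 h (replicates 1 and 2), 60 and 43 at 30 min, 68 and 68 at 1 h and 68 and 68 at 2 h. The added peaks were mostly at promoters, those of neighbouring genes in the windows included. Promoter peaks numbered 13 and 17 at 0 h and 29 and 31 at 2 h, while distal peaks numbered 36 and 33 at 0 h and 39 and 37 at 2 h. Over the whole lists, 47.9% and 44.4% of Ikaros peaks were at promoters at 0 h and 52.2% and 51.6% at 2 h, and the lists themselves grew from 7822 and 9527 peaks to 14225 and 14179. No test was made of these counts.

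**Figure D1:**
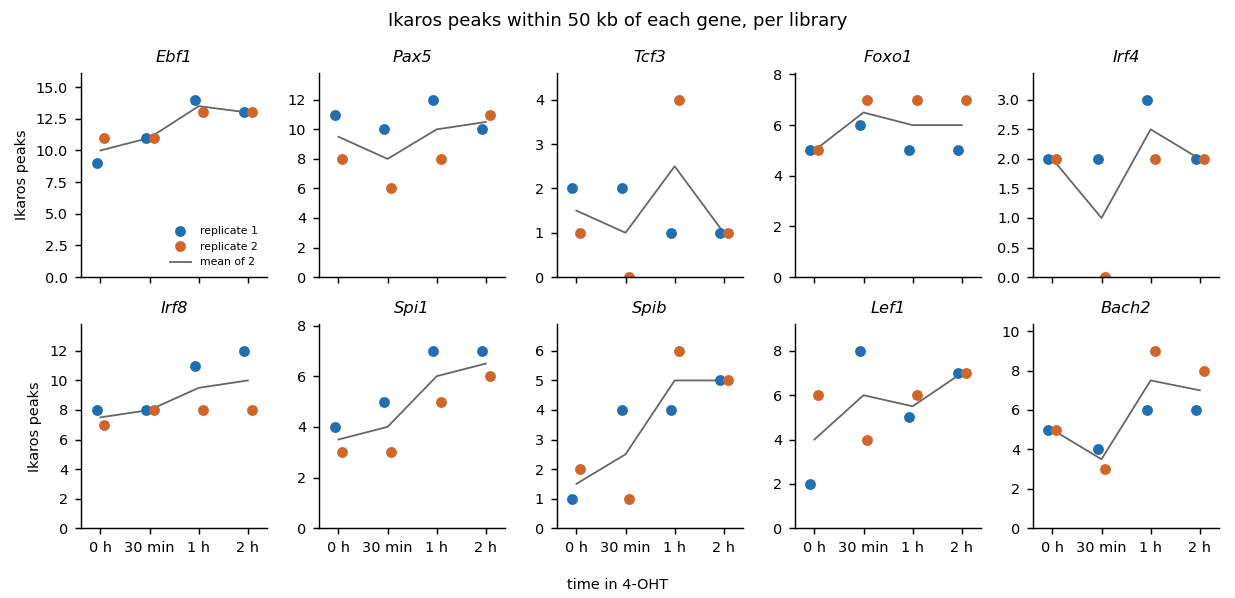
Number of Ikaros peaks within 50 kb of each of the 10 genes (vertical axis) against the time in 4-OHT (horizontal axis), with 1 point for each of the 2 replicate lists and a line through their mean. Spib had 1 and 2 peaks at 0 h and 5 and 5 at 2 h, nearly all at promoters of neighbouring genes. Irf4 and Tcf3 had at most 4 peaks in any list.

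A region was counted as gained when both 2 h lists and neither 0 h list held it, and as lost in the opposite case. Near the 10 genes 9 Ikaros regions were gained and 4 were lost, that is 9 and 4 of 98, where over all regions 12.0% were gained and 3.59% lost. For CHD4 1 region was gained and 2 were lost of 75 (5.30% and 1.45% over all regions). For H3K27ac 15 were gained and 1 was lost of 285 (3.73% and 2.78%). Of the 15 gained H3K27ac regions 11 lay at Ebf1, 2 at Foxo1, and 1 each at Pax5 and Spi1. All 15 were distal. None of them overlapped an Ikaros or a CHD4 peak of any list, where over all gained H3K27ac regions 9.97% overlapped an Ikaros peak and 11.9% a CHD4 peak. With lists cut to equal size the counts moved to 5 gained and 8 lost for Ikaros and 8 gained and 2 lost for H3K27ac, so the excess of gained over lost Ikaros regions turned around. It did so over all regions too, where 7.63% were gained and 9.87% lost for Ikaros, and for H3K27ac 2.4% were gained and 5.21% lost.

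The fold of a peak over its local background (column 7 of the lists) was tested with limma in regions held by all 8 lists, after centring each library on its median, with Benjamini-Hochberg adjustment over all regions of the target. At 2 h against 0 h 1 of 21 Ikaros regions near these genes was lower (4.69% of all 2305 were) and none was higher. For H3K27ac 1 of 52 was lower (0.224% of 14716) and none was higher. The shares of all regions called higher by fold are not given here. For CHD4 limma called 0 of 12 (0.553% of 723), with 2 of the 12 at an unadjusted p under 0.05. The fragments at the summit, recovered as whole numbers and divided by the coverage of the library, were tested in limma as a further measure. Without centring, 0 of the 21 Ikaros regions were higher and 1 was lower (2.34% and 6.07% of all), with 8 of the 21 at an unadjusted p under 0.05, and 3 of the 52 H3K27ac regions were higher and 14 lower (1.01% and 27.1% of all). The median of all H3K27ac regions was then −0.40 on the log2 scale. With each library also centred on its median, 4 Ikaros regions were higher and 2 lower (7.55% and 12.6% of all), and 13 H3K27ac regions were higher and 4 lower (15.1% and 8.42% of all). Directions in H3K27ac thus depended on the centring. The shares of all regions at an unadjusted p under 0.05 are not given here, so the counts at that p cannot be set against them. Values over coverage are given below without centring unless called centred, and centred ones are relative to the other regions. Numbers of summit fragments are otherwise given as found in each list, and those of Ikaros at 0 h come from the libraries with the highest coverage.

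The length covered by H3K27ac peaks in the window of a gene was added as a further measure after the regions had been seen. It was tested with limma on log2 of the length plus 500 bases, centred on the median, over 14224 genes with a mean of at least 1000 covered bases. At 2 h 4 of the 9 genes other than Irf4 had gained covered length (10.2% of all genes tested). Ebf1, Foxo1, Spi1 and Pax5 rose, while Tcf3, Irf8, Spib, Lef1 and Bach2 did not pass the test. Irf4 had entered only through its 0 h lists, with a mean of 955 bases without them, so its values are given with no test. Windows of neighbouring genes share peaks, and a length depends on how much was called in a list. In the same fit on Ikaros peaks 0 of the 9 genes tested passed (3.91% of 6391 genes), with 1 at an unadjusted p under 0.05. The share of all genes at that unadjusted p is not given here. Without centring Pax5, Spib and Ebf1 were called higher, where 29.4% of all genes were and the median over all genes was 0.85.

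**Figure D2:**
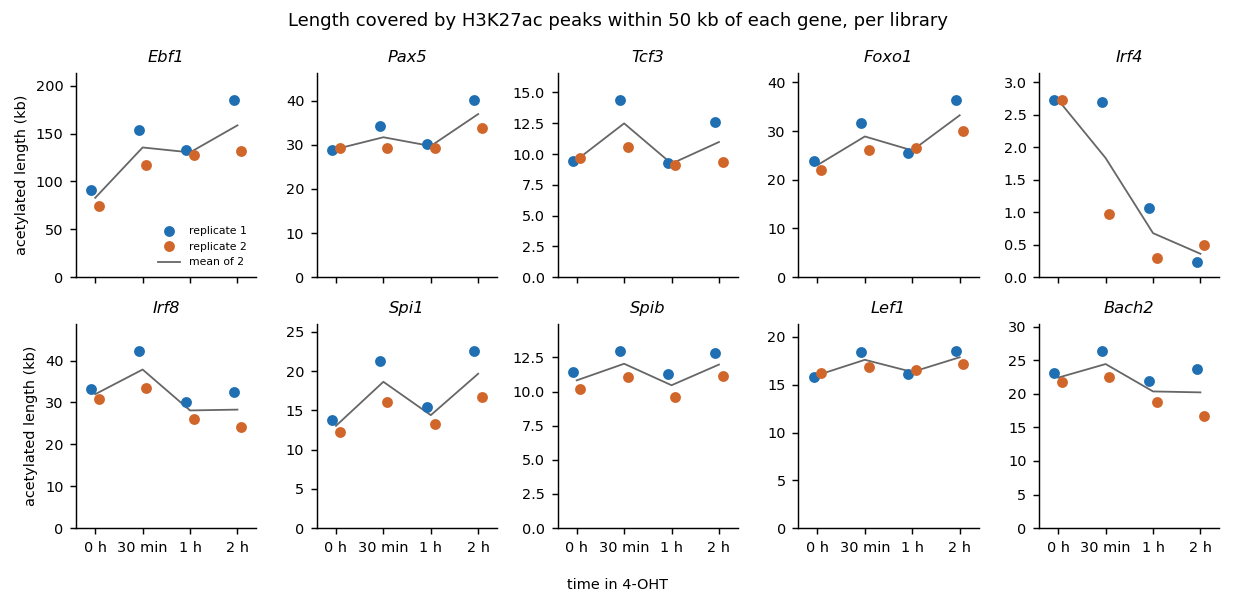
Length in kb covered by H3K27ac peaks within 50 kb of each of the 10 genes (vertical axis) against the time in 4-OHT (horizontal axis), with 1 point for each of the 2 replicate lists and a line through their mean. Both 2 h points of Ebf1 lie above both 0 h points and both 2 h points of Irf4 lie below 0.5 kb, against 2.72 and 2.73 kb at 0 h.

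Ebf1 (chr11:44617317-45008091, plus strand) encodes the factor that, with Pax5, specifies the B lineage. Its acetylated length was 91355 and 74234 bases at 0 h, 153421 and 117444 at 30 min, 132977 and 127591 at 1 h, and 185205 and 131894 at 2 h. Every list in 4-OHT lay above both 0 h lists. The log2 change was 0.86 (SE 0.13, adjusted p = 0.000341) at 2 h, larger than that of 99.5% of the genes tested, and 0.69 at 1 h (adjusted p = 0.00366). The whole lists covered 40.2 and 37.6 Mb at 0 h and 46.5 and 39.4 Mb at 2 h, and the Ebf1 window held 0.227% and 0.197% of that at 0 h and 0.398% and 0.335% at 2 h. Under quantile normalization the change was 0.21 (adjusted p = 0.0975).

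The added acetylation at Ebf1 was broad and low. Distal H3K27ac peaks numbered 51 and 26 at 0 h, 86 and 46 at 30 min, 82 and 71 at 1 h and 93 and 65 at 2 h, and the median fold of all H3K27ac peaks in the window stayed between 3.1 and 3.6. The 11 gained regions lay between 163.5 and 401.9 kb from the start of the gene, with folds of 2.1 to 4.5 in the 2 h lists. The one at chr11:44988943-44991233 was absent from both 0 h lists, had folds of 2.84 and 2.2 at 30 min, 3.53 and 3.61 at 1 h, and 3.95 and 3.19 at 2 h. The other 4 of the 5 with the highest rank at 2 h were at chr11:44980711-44981977, with folds of 3.79 and 4.5 at 2 h, chr11:44818691-44820296, with 3.96 and 3.29, chr11:44780412-44781259, with 3.57 and 3.67, and chr11:45018855-45019657, with 3.1 and 3.73. The last 2 were called in no list before 2 h. In regions present in all lists the summit fragments over coverage rose at 3 distal regions of Ebf1, of 11 regions tested there (1.01% of all regions were higher), by 0.63 to 0.79 on the log2 scale, and these are the 3 H3K27ac regions near the 10 genes called higher without centring. Centred, 6 of the 11 were called higher, all distal, by 0.40 to 1.26, where 15.1% of all regions were. The highest by both was at chr11:44859531-44864983. There the lists held 22 and 23 summit fragments at 0 h, 31 and 26 at 30 min, 32 and 31 at 1 h, and 41 and 32 at 2 h (log2 change over coverage 0.79, limma adjusted p = 0.0122; centred 1.26, adjusted p = 0.000129). Its fold rose from 2.90 and 2.88 to 4.32 and 3.83 (log2 change 0.96, adjusted p = 0.198).

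Regions at the Ebf1 promoters had lower or similar summits. The region at the first promoter (chr11:44614945-44626396) had 227 and 186 summit fragments at 0 h, 259 and 154 at 30 min, 191 and 111 at 1 h and 107 and 127 at 2 h. The 2 h lists lay below both 0 h lists. Its change over coverage was −0.72 (limma adjusted p = 0.0166), and centred −0.24 (adjusted p = 0.211). The region around the internal promoter (chr11:44871152-44912666) had 301 and 296 at 0 h and 249 and 226 at 2 h, and a distal region just upstream of the gene (chr11:44609554-44614635), of higher rank at 2 h than either, had 151 and 146 at 0 h and 123 and 115 at 2 h. These 2 were called by none of the measures.

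**Figure D3:**
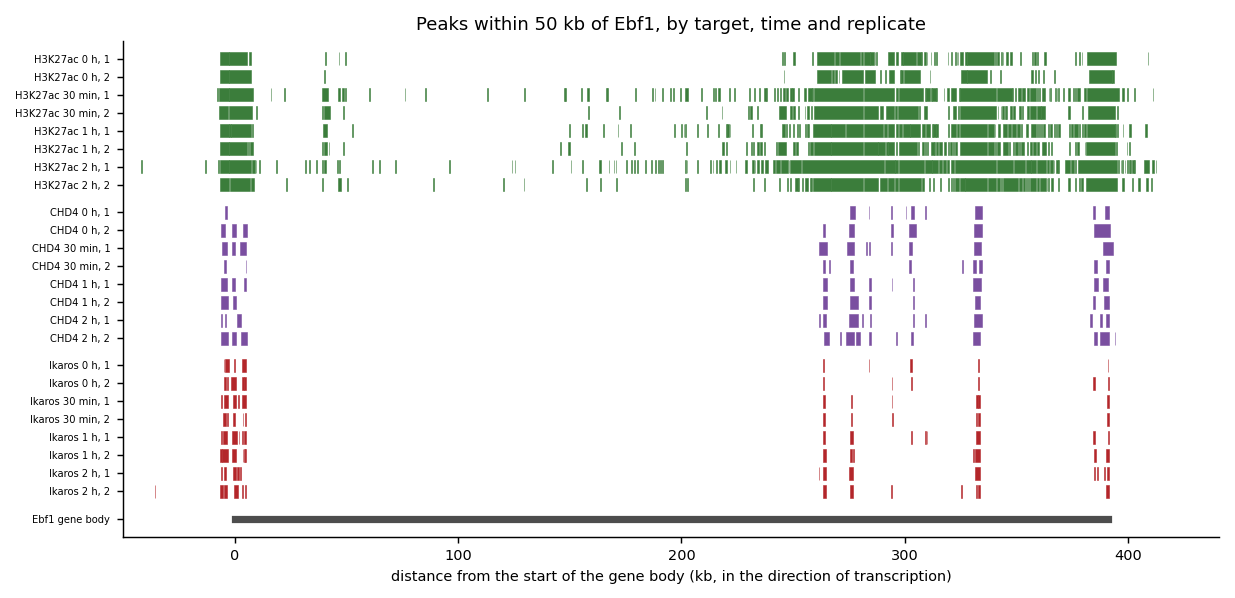
Peaks within 50 kb of Ebf1, with a row for each list (target, time, replicate) and the distance in kb from the start of the gene body on the horizontal axis. H3K27ac peaks are green, CHD4 purple, Ikaros red and the gene body grey. The 2 h lists hold 93 and 65 distal H3K27ac peaks, against 51 and 26 in the 0 h lists.

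Ikaros at Ebf1 held 9 and 11 peaks at 0 h, 11 and 11 at 30 min, 14 and 13 at 1 h and 13 and 13 at 2 h. By centred fragments over coverage 1 of the 5 regions tested there was higher (7.55% of all), and without centring none was. One intronic region, 276.1 kb into the gene (chr11:44892362-44894423), was gained. It was in neither 0 h list and had 45 and 25 summit fragments at 30 min, 46 and 59 at 1 h and 43 and 47 at 2 h. The same place held CHD4 in all 8 lists and H3K27ac in all 8, so both were there before Ikaros was called. A second, 302.8 kb into the gene (chr11:44919687-44920454), was lost: it had 39 and 51 summit fragments at 0 h, none called at 30 min, 16 in 1 replicate at 1 h, and none called at 2 h. It overlapped CHD4 peaks in 5 lists. Between the 2 lies a CHD4 region at the internal promoter (chr11:44911051-44911879) that was lost, with folds of 2.78 and 3.0 at 0 h, 2.75 in replicate 1 at 30 min and 3.42 in replicate 1 at 1 h, and no peak at 2 h. The promoter region chr11:44615846-44619412 held Ikaros in all 8 lists, with 34 and 31 summit fragments at 0 h and 27 and 28 at 2 h. Of the other promoter regions, chr11:44620485-44622553 had 32 and 33 at 0 h and 14 in replicate 2 only at 2 h, and chr11:44911211-44911823 was in 4 lists, with 26 in replicate 2 at 0 h and 26 in replicate 2 at 2 h. The highest ranked distal Ikaros region at 2 h lay at the gene's end (chr11:45007369-45008755), with 37 and 54 fragments at 0 h and 44 and 46 at 2 h.

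Pax5 (chr4:44524757-44710487, minus strand) encodes the factor that keeps B cells committed. It held 11 and 8 Ikaros peaks at 0 h and 10 and 11 at 2 h. Its promoter region chr4:44709771-44715158 held Ikaros in all 8 lists, with 56 and 57 summit fragments at 0 h, 45 and 30 at 30 min, 46 and 43 at 1 h and 42 and 40 at 2 h. Over coverage, centred, this was a change of −0.059 (limma adjusted p = 0.867). The region 4.6 kb into the gene (chr4:44704671-44707152), at a second start site, had 28 and 39 at 0 h, 55 and 28 at 30 min, 63 and 52 at 1 h and 42 and 52 at 2 h. Over coverage the change was 0.95 (limma adjusted p = 0.0601), centred 0.90 (adjusted p = 0.0140), and by fold 0.44 (adjusted p = 0.537). It is 1 of the 2 Ikaros regions of Pax5, of 3 tested, that were called higher when centred (7.55% of all were). Of 2 further promoter regions, chr4:44701477-44703616 had 30 and 41 at 0 h and 23 and 18 at 2 h, and chr4:44704014-44704489 was in 2 lists. The distal Ikaros region ranked highest at 2 h (chr4:44741035-44742495), upstream of the gene, had 22 and 32 at 0 h and 27 and 26 at 2 h. CHD4 covered the promoter and the second start site in all 8 lists, with folds of 2.8 to 4.3. The acetylated length was 28869 and 29223 bases at 0 h and 40223 and 33762 at 2 h, a log2 change of 0.28 (SE 0.086, adjusted p = 0.0346). The adjusted p was 0.291 without 0 h replicate 1, 0.114 without 0 h replicate 2, 0.0925 without 2 h replicate 1, 0.0570 and 0.0583 without either 30 min replicate, 0.172 without centring and 0.219 under quantile normalization.

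Foxo1 (chr3:52268336-52353221, plus strand) encodes a factor needed for the rearrangement of immunoglobulin genes. Its promoter gained Ikaros and, by the count over the full lists, CHD4. The Ikaros region chr3:52267413-52268404 was in neither 0 h list nor in replicate 1 at 30 min, and had 14 summit fragments in replicate 2 at 30 min, 21 and 16 at 1 h, and 23 and 19 at 2 h. The CHD4 region chr3:52266208-52268056 was in neither 0 h list, with folds of 3.4 in replicate 2 at 30 min, 3.56 in replicate 1 at 1 h, and 2.97 and 3.03 at 2 h. It was not counted as gained with −log10 q of at least 3, with fold of at least 3 or with lists of equal size. H3K27ac at the promoter (chr3:52265675-52272315) had 83 and 71 summit fragments at 0 h, 113 and 85 at 30 min, 98 and 48 at 1 h, and 46 and 47 at 2 h. The 2 h values lay below both 0 h values. The change over coverage was −0.62 (limma adjusted p = 0.0474), centred −0.15 (adjusted p = 0.561) and by fold −0.31 (adjusted p = 0.612). The covered length in the window was 23942 and 22067 bases at 0 h and 36416 and 30062 at 2 h (log2 change 0.45, SE 0.091, adjusted p = 0.00265). Both gained H3K27ac regions lay in the introns, 53.4 and 67.1 kb from the start. Foxo1's highest ranked distal Ikaros region (chr3:52394056-52396913) lay 42.3 kb past the gene's end, in all 8 lists, with 31 and 45 summit fragments at 0 h and 39 and 26 at 2 h.

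Tcf3 (chr10:80409514-80433647, minus strand), which encodes the E2A proteins E12 and E47, had one upstream region whose peaks were not called later. The region 9.5 kb upstream held Ikaros in both 0 h lists (chr10:80442878-80443350, 32 and 24 summit fragments, folds of 6.26 and 5.42) and in no later list. H3K27ac there (chr10:80442613-80443729) had 28 and 34 fragments at 0 h and 21 in replicate 1 at 30 min, and was in no later list. CHD4 was called there in 1 of the 8 lists, replicate 2 at 0 h, with a fold of 3.43. It is the only H3K27ac region near the 10 genes that was lost by this count. Tcf3's own promoter held no Ikaros peak in any list, and its H3K27ac had 156 and 111 summit fragments at 0 h and 155 and 126 at 2 h. Over coverage this was a change of 0.19 (limma adjusted p = 0.562), centred 0.66 (adjusted p = 0.000674), and by fold, where the 0 h replicates stood at 28.6 and 8.5, a change of 0.65 (adjusted p = 0.537).

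Irf4 (chr13:30749226-30766976, plus strand) encodes a factor that ends pre-B cell proliferation and starts light chain rearrangement. The acetylated region at its promoter, chr13:30749299-30752087, had 52 and 40 summit fragments at 0 h, 25 and 18 at 30 min, 21 in replicate 1 only at 1 h, and 18 in replicate 2 only at 2 h. The peaks of both 0 h lists and of replicate 2 at 30 min reached the promoter, and those of the other lists lay more than 1 kb from a start site. Its folds were 9.69 and 7.19 at 0 h, 5.47 and 3.71 at 30 min, and 3.92 and 3.67 in the lists of 1 h and 2 h that held it. As it was not in all lists, the fold was not tested. The covered length in the window was 2722 and 2727 bases at 0 h, 2700 and 963 at 30 min, 1059 and 293 at 1 h, and 230 and 487 at 2 h. Both 2 h lists and both 1 h lists lay below both 0 h lists. Irf4 is the gene of the 10 with the least acetylated length.

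Ikaros was called at the same place in 7 of the 8 lists. The promoter region chr13:30748994-30750393 had 18 and 14 summit fragments at 0 h, 16 in replicate 1 at 30 min, 17 and 17 at 1 h, and 12 and 14 at 2 h, and an intronic region 2.0 kb from the start (chr13:30750799-30751559) had 18 and 16 at 0 h and 15 and 10 at 2 h. These are low numbers of fragments, and the list without them, replicate 2 at 30 min, was the one with the lowest coverage. CHD4 was called at the promoter in 1 list, replicate 2 at 2 h.

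Irf8 (chr8:120736358-120756694, plus strand) encodes an interferon regulatory factor that acts with PU.1 and Irf4 in B cells. Of 5 Ikaros regions held by all lists, 1 was lower at 2 h by fold and by summit fragments over coverage, 1 further region was lost, and 1 at the promoter was gained. By centred fragments over coverage 1 of the 5 was higher and 2 were lower (7.55% and 12.6% of all). The element with the highest fold in both 0 h lists, 36.6 kb upstream and within an intron of the annotated gene Gm20388 (chr8:120698524-120700962), is the one whose sequence with 2 GGGAA words is shown above. It had 69 and 82 summit fragments at 0 h, 29 and 23 at 30 min, 24 and 25 at 1 h, and 21 and 22 at 2 h. Its folds were 13.8 and 17.9 at 0 h, 5.92 and 4.82 at 30 min, 7.1 and 7.39 at 1 h, and 4.57 and 6.16 at 2 h. The 0 h values stood well apart from all later ones. The log2 change in fold was −1.40 at 30 min (adjusted p = 0.00971), −1.21 at 1 h (adjusted p = 0.0258) and −1.48 at 2 h (SE 0.34, adjusted p = 0.00591), and 1 of the 21 regions tested was lower at each of these times, against 2.82% and 4.86% of all regions at 30 min and 1 h. The adjusted p at 2 h was 0.0599 without 0 h replicate 2 and 0.0701 without 2 h replicate 1, and 0.0723 under quantile normalization.

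The element 27 kb from the gene start, 6.7 kb past its end (chr8:120763045-120763714), was lost, with 48 and 53 summit fragments at 0 h, 10 in replicate 2 at 30 min, 15 in replicate 1 at 1 h, and no peak at 2 h. CHD4 there (chr8:120762622-120763798) had folds of 3.44 and 3.17 at 0 h and 3.59 in replicate 1 at 30 min, and was in no later list. The intronic region 11.2 kb from the start (chr8:120747214-120747950) had 39 and 47 fragments at 0 h and 19 and 19 at 2 h (log2 change over coverage −0.73, limma adjusted p = 0.169; centred −0.77, adjusted p = 0.0204; by fold −0.69, adjusted p = 0.245). The promoter region chr8:120736273-120737351 was gained, with 13 in replicate 2 at 30 min, 11 in replicate 1 at 1 h, and 20 and 14 at 2 h.

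**Figure D4:**
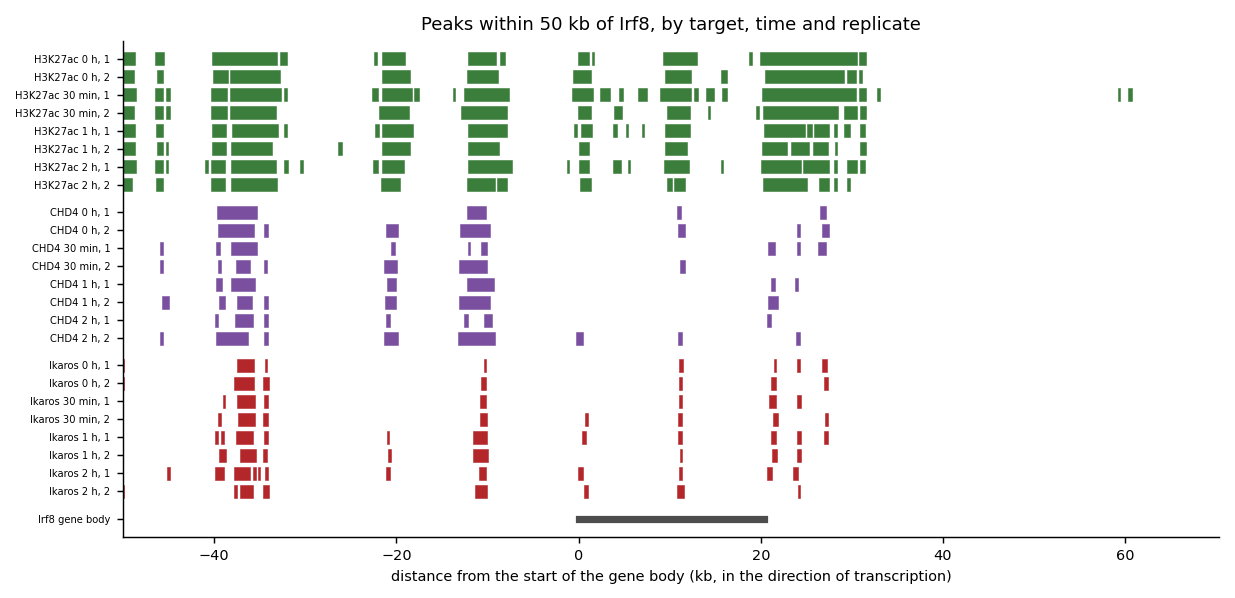
Peaks within 50 kb of Irf8, with a row for each list (target, time, replicate) and the distance in kb from the start of the gene body on the horizontal axis. H3K27ac peaks are green, CHD4 purple, Ikaros red and the gene body grey. The Ikaros and CHD4 peaks 27 kb from the start are in the 0 h lists and not in the 2 h lists.

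H3K27ac fell over coverage at 4 of the 8 regions of Irf8 tested, where 27.1% of all regions were lower and the 14 of 52 near the 10 genes were close to that share. Around the upstream element (chr8:120695966-120704502) it had 253 and 196 summit fragments at 0 h, 184 and 138 at 30 min, 135 and 89 at 1 h, and 111 and 94 at 2 h. The change over coverage was −1.02 (limma adjusted p = 0.000462), centred −0.55 (adjusted p = 0.00215) and by fold −0.56 (adjusted p = 0.425). The region over the downstream element (chr8:120756323-120766972) had 94 and 97 at 0 h and 46 and 50 at 2 h (over coverage −0.89, limma adjusted p = 0.00368; centred −0.42, adjusted p = 0.0598). The promoter-proximal region 11.0 kb from the start (chr8:120745350-120749455), at a later start site of Irf8, had 77 and 86 at 0 h and 32 and 34 at 2 h (over coverage −1.2, adjusted p = 6.23e-05; centred −0.73, adjusted p = 0.00469; by fold −0.45, adjusted p = 0.429). The region 10.1 kb upstream (chr8:120723507-120729054) had 230 and 185 at 0 h and 189 and 173 at 2 h, a change over coverage of −0.089 (limma adjusted p = 0.790), which centred became 0.38 (adjusted p = 0.0167). The fourth, at the promoter (chr8:120735652-120738067), had 49 and 47 at 0 h and 25 and 33 at 2 h (over coverage −0.64, adjusted p = 0.0440; centred −0.17, adjusted p = 0.617). The acetylated length of the window was 33199 and 30737 bases at 0 h and 32434 and 24142 at 2 h (adjusted p = 0.0916), and was called lower without 2 h replicate 1 (adjusted p = 0.00453).

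**Figure D5:**
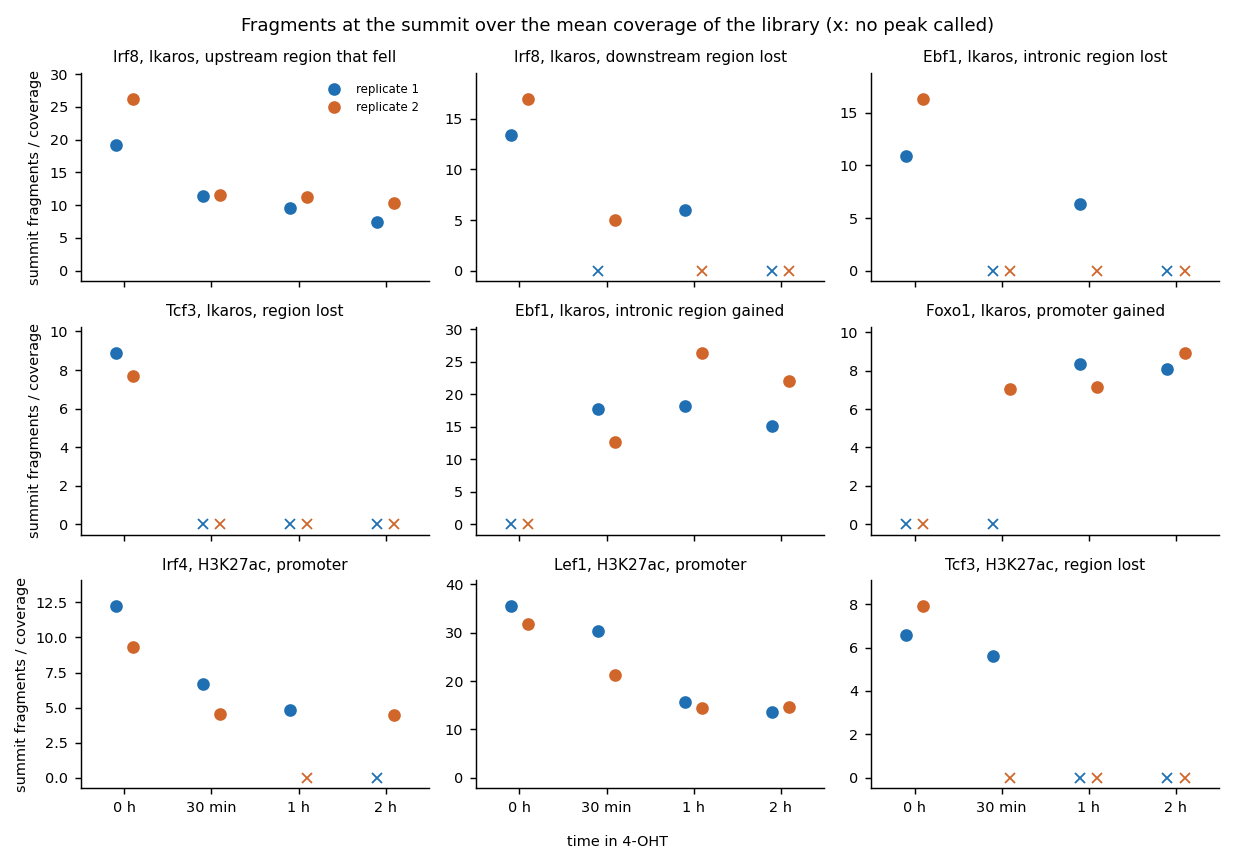
Fragments at the summit divided by the mean coverage of the library (vertical axis) against the time in 4-OHT (horizontal axis) for 6 Ikaros regions and 3 H3K27ac regions. Each point is 1 of the 2 replicate lists, and a cross at 0 marks a list in which no peak was called. At the upstream Irf8 region, the Lef1 promoter and the Irf4 region that reached the promoter the 0 h points lie above all later ones. In the Irf4 region the later peaks, except in replicate 2 at 30 min, lay more than 1 kb from a start site.

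Spi1 (chr2:91082390-91115756, plus strand) encodes PU.1. It held 4 and 3 Ikaros peaks at 0 h and 7 and 6 at 2 h. Its promoter region chr2:91082757-91083347 was in no list of 0 h or 30 min, and had 17 and 14 summit fragments at 1 h and 20 and 15 at 2 h. CHD4 was called there in 6 lists, including both of 0 h, with folds of 4.47 and 3.49. A later promoter (chr2:91096028-91097477) held Ikaros in all 8 lists, with 17 and 17 at 0 h and 16 and 27 at 2 h. The highest ranked distal region (chr2:91078569-91079389), 3.4 kb upstream, had 18 and 24 at 0 h and 26 and 19 at 2 h. A second gained region, 21.1 kb past the gene's end (chr2:91136586-91137187), had no peak at 0 h, with 13 and 16 fragments at 2 h. The acetylated length was 13839 and 12245 bases at 0 h, 21261 and 16043 at 30 min, 15496 and 13307 at 1 h and 22589 and 16774 at 2 h. The log2 change at 2 h was 0.50 (SE 0.10, adjusted p = 0.00343), with an adjusted p of 0.0656 without centring. Both 1 h values lay below both 30 min values. H3K27ac at the promoter (chr2:91076945-91084564) had 186 and 115 fragments at 0 h and 136 and 146 at 2 h (over coverage 0.047, limma adjusted p = 0.892; centred 0.52, adjusted p = 0.00670; by fold 0.59, adjusted p = 0.406).

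Spib (chr7:44525993-44532071, minus strand), which encodes the PU.1 relative Spi-B, had no peak of any target within 1 kb of its own start site in any list. Nearly all peaks counted in its window lay at promoters of neighbours, with at most 1 distal peak of a target in a list. Ikaros was gained at the promoter shared by Emc10 and Fam71e1 (chr7:44496135-44496751) and at that of Nr1h2 (chr7:44553644-44554482), with 19 and 19 and with 22 and 16 summit fragments at 2 h. The region of the window present in all 8 lists lay at Pold1 (chr7:44547305-44548734), with 38 and 39 fragments at 0 h and 29 and 28 at 2 h.

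Lef1 (chr3:131110471-131224356, plus strand) showed the one H3K27ac region whose fold was called lower. The region at its promoter (chr3:131105044-131119762) had 151 and 137 summit fragments at 0 h, 114 and 84 at 30 min, 68 and 54 at 1 h and 54 and 59 at 2 h. Its folds were 27.7 and 24.0 at 0 h, 17.5 and 11.1 at 30 min, 12.1 and 10.8 at 1 h, and 6.16 and 8.19 at 2 h. The values of 0 h lay above all later ones. The log2 change was −1.40 by fold (limma adjusted p = 0.0402) −1.25 over coverage (adjusted p = 2.23e-05), and centred −0.78 (adjusted p = 0.000224). The fold was not called when any 1 of the 8 libraries was left out (adjusted p = 0.0636 to 0.198), and with the mean fold of the peaks in the region the change was −0.77 (adjusted p = 0.258). The acetylated length of the window was 15760 and 16241 bases at 0 h and 18537 and 17205 at 2 h (adjusted p = 0.540).

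Ikaros was bound on both sides of the Lef1 start. The region 3.4 kb upstream (chr3:131105507-131108711) was the highest ranked distal Ikaros region of the 10 genes at 2 h, with a mean percentile of 98.9, and had 51 and 57 fragments at 0 h and 33 and 36 at 2 h. The promoter region chr3:131108972-131113221 was absent from replicate 1 at 0 h, had 20 in replicate 2, and 31 and 19 at 2 h, and a short one beside it (chr3:131113360-131113630) was in 1 list. An intronic region (chr3:131139206-131139480) was lost, with 28 and 26 fragments at 0 h and 15 in replicate 1 at 30 min. Another intronic region (chr3:131208375-131209200) and one at the promoter of Hadh (chr3:131271385-131272006) were gained, with 15 and 25 and with 20 and 13 fragments at 2 h. A CHD4 region that reached the promoter (chr3:131105704-131113351) was in all 8 lists, with folds of 3.5 to 4.3. In replicate 1 at 0 h, replicate 2 at 30 min and both lists of 1 h its peaks lay more than 1 kb from a start site.

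Bach2 (chr4:32238804-32586108, plus strand) had regions of all targets at 2 start sites. At the second (chr4:32247479-32252908), H3K27ac had 178 and 157 summit fragments at 0 h, 119 and 86 at 30 min, 98 and 80 at 1 h and 73 and 77 at 2 h. The change over coverage was −1.06 (limma adjusted p = 0.000371), centred −0.58 (adjusted p = 0.00196) and by fold −0.43 (adjusted p = 0.453). Ikaros there (chr4:32248275-32249464) had 18 fragments in 1 of 2 lists at 0 h and 18 and 25 at 2 h, and at the first (chr4:32239066-32240366) 15 in 1 of 2 lists at 0 h and 18 and 19 at 2 h. Over coverage 4 distal H3K27ac regions of Bach2 were lower too, by −0.91 to −0.78 on the log2 scale, making 5 of 8 tested where 27.1% of all regions were lower, and none of the 4 was called when centred. No region of Bach2 was gained or lost. The highest ranked distal Ikaros region, in an intron (chr4:32357897-32359672), had 37 and 59 fragments at 0 h and 25 and 28 at 2 h. The acetylated length was 23098 and 21696 bases at 0 h and 23743 and 16663 at 2 h (adjusted p = 0.153), with an adjusted p of 0.00450 without 2 h replicate 1.

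Across the 10 genes the distal H3K27ac regions held by all lists had a median log2 change in fold at 2 h of 0.24 (22 regions), beside 0.11 over all 5253 distal regions tested. The promoter regions had 0.0051 (30 regions), beside 0.030 over all 9463. Without centring the distal median near the genes was −0.22 and the promoter median −0.46, where the median of all regions was −0.41, so the centred values are relative to the other regions.

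Other genes of the B cell program were counted in the same way. Of 30 further B cell transcription factor genes 16 had a gained and 10 a lost Ikaros region within 50 kb (53.3% and 33.3%), of 14 B-lineage target genes 10 had a gained and 1 a lost one, and of the 10 genes described here 6 had a gained and 4 a lost one. Over all protein-coding genes it was 26.9% and 8.43%. The genes described here had a median of 9 Ikaros regions, the further factor genes 7 and the target genes 6, against 2 over all genes, and a gene with more regions has more that can be gained or lost. Of the regions themselves 9.18% were gained near the 10 genes, against 12.0% over all. Rag1 and Rag2, and Igll1 and Vpreb1, had the same numbers of Ikaros regions, as neighbours that share windows would. The further factor genes with the most Ikaros regions were Ikzf1 with 20, Tcf4 with 18, Ets1 with 17, Myb with 15 and Tcf12 with 14, and the target genes Cd72, Cd79a and Cd79b with 11 each, Flt3 with 10 and Blnk with 9. At Ikzf1, which encodes Ikaros itself, 2 Ikaros regions were gained and 1 was lost. A gained H3K27ac region lay near 40% of the 10 genes, 33.3% of the further factor genes and 21.4% of the target genes. Over all genes it was 9.27%. At Ikzf1 8 of 67 H3K27ac regions were gained, beside 11 of 131 at Ebf1.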

How the data were processed

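Peak lists of 24 ChIP-seq libraries were used, 8 for each of Ikaros (anti-HA), CHD4 and H3K27ac. The 8 input libraries had no list here. The authors fixed cells with disuccinimidyl glutarate and formaldehyde, mapped read pairs with Bowtie2 2.4.2 (mm10), used Picard 2.23.7 and deepTools 3.5.0, and called peaks for each sample with MACS2 2.2.7.1, as broad peaks for CHD4. The settings used for the 30 min libraries and any filtering of the peak lists by blacklisted regions are not given in the sources used here. In the deposited lists column 7 is the ratio of signal to local background (fold), columns 8 and 9 are −log10 p and −log10 q values, and column 5 is a score that was not analysed. The 2 lists of a group were called separately.

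Whole fragments at a summit and the mean coverage were recovered from fold and −log10 p (matched within 0.003 for at least 99.76% of the peaks of each list), tested on simulated lists. GENCODE M21 gave genes and start sites. limma 3.58.1 (R 4.3.3) was run with a mean-variance trend on log2 fold over regions held by all 8 lists, all times in one fit, with adjusted p under 0.05 called. In simulated data for 14716 H3K27ac regions it recovered 5.51% of log2 changes of 1 and 34.1% of 1.5, for 2305 Ikaros regions 27.0% and 64.0%, and for 723 CHD4 regions 98.9% and 100%. The members, gene lists and rules were chosen with earlier results of these data known. For each member, its promoter regions, highest ranked distal Ikaros region, regions gained or lost (at most 5 per target) and regions with a called fold were to be named. For CHD4 and H3K27ac only some of these promoter regions are given. Regions called only over coverage, the covered length and the other regions given beside them were chosen after their values were seen. Summit fragments over coverage were fitted without centring and with each library centred on its median. Alternatives were stricter peak thresholds, other overlaps, windows and scalings, lists of equal size, a replicate block, and leaving out libraries. Sequences are from the GRCm38.p6 assembly.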

Additional observations from a re-analysis of the deposited data

How the results depend on the processing

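With −log10 q of at least 3 CHD4 had 0 gained and 1 lost of 23 (1.71% and 2.1% over all regions), and with fold of at least 3 it had 0 gained of 63 (3.64%). With lists of equal size Ikaros had 5 gained and 8 lost of 68 (7.63% and 9.87%) and CHD4 0 gained of 53 (2.46%). H3K27ac then had 8 gained and 2 lost of 147 (2.4% and 5.21%). With a 20 kb window Ikaros had 5 gained of 67 (12.0%). Leaving out 1 library of 0 h or 2 h asks for 1 list in place of 2 in that group, and gave 13 to 26 gained and 5 to 7 lost for Ikaros, 3 to 15 and 3 to 6 for CHD4, and 16 to 117 and 2 to 6 for H3K27ac. The shares over all regions moved as well, and the highest H3K27ac count, without 2 h replicate 2, is 42.9% of the regions near the genes where 26.1% of all were gained. The highest Ikaros count, also without 2 h replicate 2, is 27.08% where 28.4% of all were gained. For CHD4 the highest, without 2 h replicate 1, is 20.55% where 38.38% of all were gained. In each of these settings the gained share near the genes was below that over all regions for Ikaros and CHD4, and above it for H3K27ac. The lost shares of Ikaros and CHD4 lay above those over all regions in some of these settings and below in others. The number of changed regions by centred summit fragments over coverage was 6 for Ikaros and 17 for H3K27ac, in place of 1 each by fold, and without centring, an alternative chosen after seeing the data, 1 and 17. For Ikaros it was 0 under quantile normalization and 0 in a 20 kb window, which does not reach the upstream Irf8 region, and for H3K27ac it was 0 with the mean fold of the peaks in a region. Leaving out single libraries gave 0 to 1 for Ikaros, 0 for H3K27ac and 0 for CHD4. No CHD4 region near these genes was left to test with −log10 q of at least 3.

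The median change of distal H3K27ac regions was 0.24 in the fit, −0.22 without centring, 0.30 in a 20 kb window, 0.15 over coverage with centring and −0.32 without it, and 0.20 to 0.31 without single libraries. That of promoter regions was 0.0051, with −0.46 without centring, −0.43 over coverage without centring, and −0.093 to 0.074 without single libraries. The covered length changed sign at Lef1 under quantile normalization (−0.012 in place of 0.093) and at Tcf3 without 2 h replicate 1 (0.12 with all libraries, −0.023 to 0.26 without single libraries). Quantile normalization called Irf8 (−0.40) and Bach2 (−0.34) and no longer called Ebf1 (0.21) or Pax5 (0.12). It called 1401 of all 14224 genes lower and 1246 higher. Irf8 was also called without 2 h replicate 1 (−0.39). The changes at Ebf1, Foxo1 and Spi1 were called without each of the 8 libraries in turn.

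Same-numbered libraries did not deviate together (correlations of −0.047 to 0.18 between times), so the numbers were not taken to pair samples. With a replicate block the number of regions with a changed fold stayed at 1 for Ikaros, 0 for CHD4 and 1 for H3K27ac, and no call on covered length of H3K27ac at the 10 genes changed. A region missing from a list may have had signal under the threshold of the caller.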
